A study of Homo sapiens with 6 samples.

Results

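S100 proteins are small EF-hand calcium sensors. The RNA levels of 10 of them, S100A2, S100A4, S100A6, S100A8, S100A9, S100A10, S100A11, S100A14, S100A16 and S100P, were followed in cells labelled Huh7, a human hepatocellular carcinoma line, with and without a TP53TG1 plasmid. The members were chosen by gene symbol, and all 10 were found among the 58233 genes listed. The control group was 3 libraries of cells given an empty plasmid. The other group was 3 libraries of cells given a plasmid that overexpresses the long noncoding RNA TP53TG1. The sample titles of this group spell it TP53TP1. The labels name no other treatment, no time after transfection and no promoter on the plasmid, and they do not say whether the replicates were separate cultures. The p-values therefore set the difference between groups against how far these libraries spread, and that spread may be technical. In bulk RNA, fewer cells holding a transcript and less of it per cell cannot be told apart.

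Most S100 proteins work as dimers. Calcium binding opens a hydrophobic face that docks onto a target protein such as an annexin, a myosin heavy chain or a scaffold, and some members are also released from cells and act on receptors such as RAGE (AGER) and TLR4. Many of the genes lie together on the long arm of chromosome 1, next to the genes of the epidermal barrier. In epithelial tumours S100A4, S100A6, S100A11 and S100P are widely studied for roles in motility and invasion, and S100A8 with S100A9 forms calprotectin, the abundant calcium and zinc binding protein of neutrophils.

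Levels are in FPKM, a fragment count divided by transcript length and by library size, summed here over the transcripts of a gene. The column headers name no unit, and FPKM is read from the values and the tools. On that reading values are divided by length, and levels of different genes can be set side by side. Library totals ran from 599081 FPKM in TP53TG1 replicate 1 to 890541 FPKM in control replicate 1. TP53TG1 itself was listed at 10.6, 5.25 and 6.15 FPKM in the controls against 69.8, 134 and 70.5 FPKM with TP53TG1, without overlap. Its log2 fold change was 3.46 (limma adjusted p = 0.0573), and 3.83 after scaling (adjusted p = 0.0390). The 2 libraries numbered 1 stood apart from the other 4 on the first principal component, at -30.6 for the control and -97.2 for TP53TG1 against 14.6 to 42.1. Median-of-ratios factors, which put libraries on one scale, were 0.615 for TP53TG1 replicate 1 and between 0.994 and 1.19 for the other 5. Over the 12853 genes tested, those with a mean of 1 FPKM or more, the median log2 fold change was -0.35 on unscaled FPKM and -0.01 after that scaling, and differences are also given relative to this shift. Markers of the labelled cell type were sparse. ALB, the serum albumin gene, lay between 0.53 and 1.22 FPKM, and 7 of 11 hepatocyte markers reached a mean of 1 FPKM, with 0 passing.

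The promoters of 3 members are shown because these genes stand at different levels: S100A11 was the most abundant, S100A2 low and S100A9 listed at 0. Each sequence comes from the 150 bases before the RefSeq transcription start (GRCh38.p14), 5′ to 3′ on the gene's strand, without bases that GENCODE 29 places in an exon. Capitals mark the TATAAA word, the GGGCGG word or its reverse complement, and the TGANTCA word.
S100A11 (chr1:152037036-152037154, minus strand): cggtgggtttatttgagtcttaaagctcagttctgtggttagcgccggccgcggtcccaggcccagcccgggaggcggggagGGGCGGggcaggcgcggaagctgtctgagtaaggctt
S100A2 (chr1:153565866-153565994, minus strand): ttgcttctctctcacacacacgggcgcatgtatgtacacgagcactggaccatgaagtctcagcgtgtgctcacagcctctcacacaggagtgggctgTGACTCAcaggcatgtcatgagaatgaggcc
S100A9 (chr1:153357704-153357853, plus strand): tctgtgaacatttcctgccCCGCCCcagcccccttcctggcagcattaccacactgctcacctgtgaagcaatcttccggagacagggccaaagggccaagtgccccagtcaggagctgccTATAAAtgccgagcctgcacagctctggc

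In the 250 bases before its RefSeq start, S100A11 had 15 CpG, 1 GGGCGG and no TATAAA. S100A6 and S100A10, also abundant, had 24 CpG each and no TATAAA. S100A4, with 7 CpG, S100P, with 4, and S100A9, with 4, each held 1 TATAAA, as did 2 of the 3 windows of S100A8. Among all 35116 RefSeq windows of that length, 10.7% held TATAAA on either strand and 42.6% held GGGCGG on either strand. The word TGANTCA, whose middle base is free and which reads the same on both strands, was in 6.57% of them, and the median was 11 CpG. Among the members it occurred once, in 1 of the 2 windows of S100A2. A TATAAA thus stood before the RefSeq starts of S100A4 and S100P, which were abundant, and of S100A9, which was listed at 0. For S100A4 and S100P the word lies within GENCODE 29 exons, so it is not shown to stand before their longer transcripts. The annotations place some starts apart: in GENCODE 29 the coding transcript of S100P begins 809 bases before the RefSeq start and the leading transcript of S100A4 79 bases before it. That of S100A6 begins 231 bases before it, and that of S100A10 1281 bases after it. The leading transcript of S100A2 begins 911 bases before the start used for the sequence shown. All 150 bases before the RefSeq starts of S100A6 and S100A10 lie in GENCODE exons. These matches describe the letters only.

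The members ran from abundant to nearly silent genes, with S100A16 and S100A2 in between, and this held in both groups. Averaged over the 6 libraries, S100A11 stood at 1871 FPKM, S100A6 at 1474, S100A4 at 974, S100A10 at 902 and S100P at 378 FPKM. These are ranks 47, 63, 112, 121 and 245 among all genes. S100A16 averaged 39.7 FPKM and S100A2 4.78 FPKM. S100A14 stayed at or under 0.19 FPKM, and S100A8 and S100A9 were listed at 0 in all 6 libraries. S100A11 was above S100A6, and S100A6 above S100A4, in 6 of 6 libraries, and only the second pair had ranges that did not overlap. S100A4 and S100A10 were neighbours that their spread does not separate, since S100A4 was higher in 4 of 6 libraries. From S100A10 down to S100A14, each gene's lowest library lay above the highest library of the next.

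**Figure D1:**
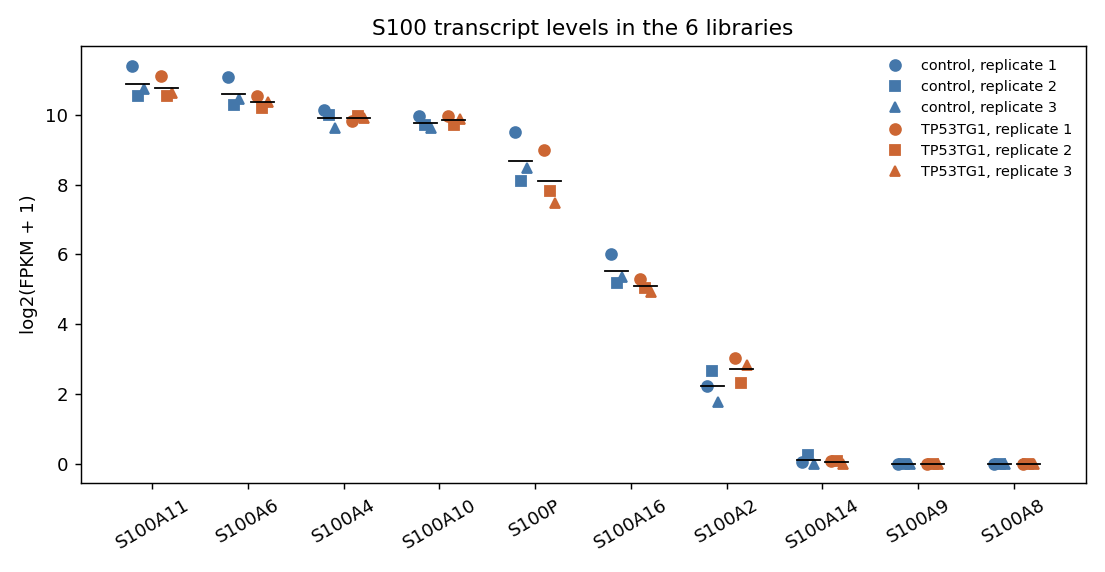
Levels of the 10 S100 genes as log2(FPKM + 1), 1 point per library (blue control, orange TP53TG1, shape by replicate number) with the mean of 3 as a bar. S100A11 at the left averaged 1871 FPKM, and S100A8 and S100A9 at the right were at 0 in every library.

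The 5 abundant genes carried between 99.1% and 99.3% of the members' summed FPKM. That sum was 7840, 4938 and 5085 FPKM in controls 1, 2 and 3 and 6167, 4797 and 5041 FPKM in the TP53TG1 libraries. As a share of all FPKM it was 0.880%, 0.725% and 0.762% in the controls against 1.03%, 0.772% and 0.806% with TP53TG1. In both groups the highest sum and the highest share were in replicate 1, and the groups overlapped.

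Between the groups, none of the S100 genes passed. Of the 10 members 7 were tested, and 0 passed at a limma adjusted p of 0.05, where 0.00778% of all tested genes did. At an unadjusted p under 0.05 it was 0 of 7, against 2.35% of all genes, 0.436% higher and 1.91% lower. The groups overlapped for every tested member. Among all tested genes they did not overlap for 0.428% in the higher direction and 13.3% in the lower, and after scaling for 1.89% and 2.18%. The median log2 fold change of the 7 members was -0.14, which is 0.21 above the median of all genes. It lay 0.47 above without control replicate 1 and 0.19 below (-0.19) without TP53TG1 replicate 1, so its side turned with that library. Above 0 lay 2 of 7 members on unscaled FPKM, where 8.57% of all genes did, and 5 of 7 after scaling, where 48.4% did. Above the median of all genes lay 5 of 7 members, against 50% by construction. S100A16 and S100P were the 2 below.

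**Figure D2:**
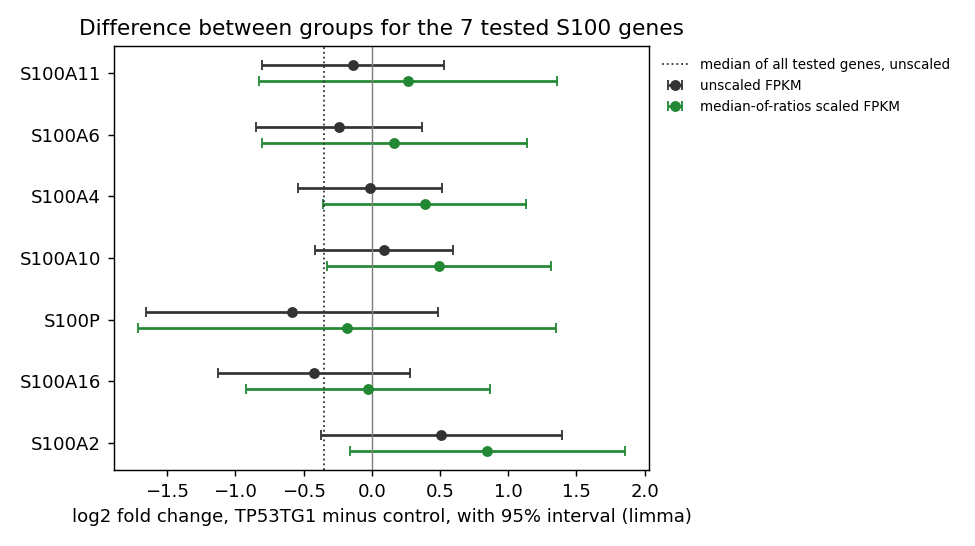
Log2 fold change of TP53TG1 minus control for the 7 tested S100 genes with 95% intervals from limma, on unscaled FPKM (black) and after median-of-ratios scaling (green). The dotted line is the median of all tested genes at -0.35, and every interval includes 0.

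S100A10 (chromosome 1, 151982915 to 151994390, minus strand), also called p11, is the member that has lost calcium binding and is held permanently in the open form as the partner of annexin A2. It was at 999, 840 and 788 FPKM in controls 1, 2 and 3 against 1003, 845 and 939 FPKM with TP53TG1. The groups overlapped, and replicate 1 was the highest of each. The log2 fold change was 0.09 (95% interval -0.41 to 0.59, limma adjusted p = 0.826), and 0.49 (-0.33 to 1.31) after scaling. ANXA2, its partner gene, was at 1860, 1532 and 1543 FPKM in the controls and 1235, 1562 and 1570 FPKM with TP53TG1. The ratio of S100A10 to ANXA2, which needs no scaling between libraries, was 0.532 ± 0.0194 in the controls and 0.651 ± 0.143 with TP53TG1 (SD, n = 3 each). For this ratio the exact permutation test, two-sided, returned p = 0.2, and 3 against 3 libraries allow no less than 0.1. The high ratio was that of TP53TG1 replicate 1, at 0.812, and the other 2 were 0.541 and 0.599.

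The transcript makeup of S100A10 was the one of its measures whose groups did not overlap. ENST00000368809, of 616 nt, held 59.3%, 57.8% and 58.6% of the gene's FPKM in controls 1, 2 and 3 and 64.2%, 61.4% and 61.8% in the TP53TG1 libraries. ENST00000368811, of 1202 nt, held nearly all of the rest, 41.4 ± 0.757% in the controls and 37.6 ± 1.51% with TP53TG1 (SD, n = 3 each). The shorter transcript was thus the larger in all 6 libraries, its share did not overlap between groups, and it was highest in replicate 1 of each. Over 9685 tested genes with at least 2 transcripts holding 5% or more, the leading transcript's share was without overlap and higher with TP53TG1 in 2.41%. No test was made of transcript shares, and StringTie divides fragments between overlapping transcripts by a model.

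S100A11 (chromosome 1, 152032506 to 152047907, minus strand), which docks onto annexin A1 and supports membrane repair, was the most abundant member. It was at 2730, 1493 and 1712 FPKM in controls 1, 2 and 3 against 2207, 1512 and 1576 FPKM with TP53TG1. Replicate 1 was the highest library in both groups. The log2 fold change was -0.14 (95% interval -0.80 to 0.53, limma adjusted p = 0.805), turned to 0.27 after scaling and was 0.12 without control replicate 1. The pseudogenes S100A11P1 and S100A11P2 were listed at no more than 0.64 FPKM. ANXA1, the annexin partner, averaged 782 ± 139 FPKM in the controls and 571 ± 82.9 FPKM with TP53TG1 (SD, n = 3 each) and did not pass (limma adjusted p = 0.748).

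S100A6 (chromosome 1, 153534599 to 153536244, minus strand), calcyclin, binds annexins and the ubiquitin ligase adaptor CACYBP. It was at 2186, 1258 and 1402 FPKM in controls 1, 2 and 3 against 1483, 1176 and 1339 FPKM with TP53TG1. Control replicate 1 stood above the other 5 libraries, which overlapped between groups. Its log2 fold change was -0.24 (95% interval -0.85 to 0.37, limma adjusted p = 0.748), 0.16 after scaling and 0.00 without control replicate 1 (-0.0009). CACYBP averaged 111 ± 17.6 and 92.9 ± 34.5 FPKM in control and TP53TG1 libraries (SD, n = 3 each).

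S100A4 (chromosome 1, 153543613 to 153550136, minus strand), known as metastasin, binds the heavy chain of nonmuscle myosin IIA and loosens its filaments. It was at 1131, 1033 and 788 FPKM in controls 1, 2 and 3 against 915, 1001 and 974 FPKM with TP53TG1. The TP53TG1 libraries lay inside the range of the controls. The log2 fold change was -0.02 (95% interval -0.54 to 0.51, limma adjusted p = 0.972), and turned to 0.39 after scaling and 0.13 without both libraries numbered 1. Of its 6 listed transcripts ENST00000368716 held 84.2 ± 2.36% in the controls and 85.6 ± 1.69% with TP53TG1 (SD, n = 3 each). MYH9, the myosin IIA heavy chain gene, was at 90.8, 204 and 256 FPKM in the controls and 54.4, 206 and 209 FPKM with TP53TG1, low in both libraries numbered 1.

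S100A3 (153547329 to 153549372) lies inside the span of S100A4 on the same strand, but only through the S100A4 transcript ENST00000368714. That transcript was listed at 0.25 FPKM or less in each library. The other S100A4 transcripts start at 153545885 or lower and run away from S100A3. S100A3 is best known from the hair cuticle and is not among the 10 members. It was at 70.2, 36.0 and 30.7 FPKM in the controls and 50.8, 41.1 and 67.9 FPKM with TP53TG1. Its ratio to S100A4 was 0.0453 ± 0.0146 and 0.0554 ± 0.0143 (SD, n = 3 each), with overlapping groups. The level of S100A3 was thus a small part of that of S100A4 in each library.

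S100P (chromosome 4, 6693069 to 6697170, plus strand) lies apart from the other members. Its protein was first found in placenta, is common in gastrointestinal tumours, binds ezrin inside the cell and RAGE outside it. It was at 727, 273 and 353 FPKM in controls 1, 2 and 3 against 513, 227 and 177 FPKM with TP53TG1. The highest library of each group was replicate 1, and TP53TG1 replicate 1 lay above 2 of the 3 controls. The ratios within a replicate number were 0.705, 0.832 and 0.501 on unscaled FPKM. After scaling, S100P was higher in TP53TG1 replicate 1 (833 FPKM) than in control replicate 1 (650 FPKM), and still lower for replicates 2 and 3. The log2 fold change was -0.59 (95% interval -1.66 to 0.48, limma adjusted p = 0.748), and -0.18 after scaling. It was -1.04 without TP53TG1 replicate 1, -0.88 without control replicate 2, -0.27 without TP53TG1 replicate 3 and -0.18 (-0.1784) without control replicate 1. With all 6 libraries this was the lowest value of the 7 tested members and the widest interval.

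ENST00000513778, a noncoding processed transcript of 313 nt, held 47.8 ± 2.41% of the FPKM of S100P in the controls and 52.1 ± 8.71% with TP53TG1 (SD, n = 3 each). The protein-coding ENST00000296370, of 1279 nt, was at 363, 149 and 183 FPKM in the controls against 203, 129 and 83.7 FPKM with TP53TG1. On unscaled FPKM the coding transcript was lower with TP53TG1 within each replicate number, while the groups overlapped. No scaled values were made for single transcripts, and how many of all transcripts were lower in this way was not counted. The length of the coding transcript includes the 809 bases before the RefSeq start, so its FPKM depends on that annotation.

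**Figure D3:**
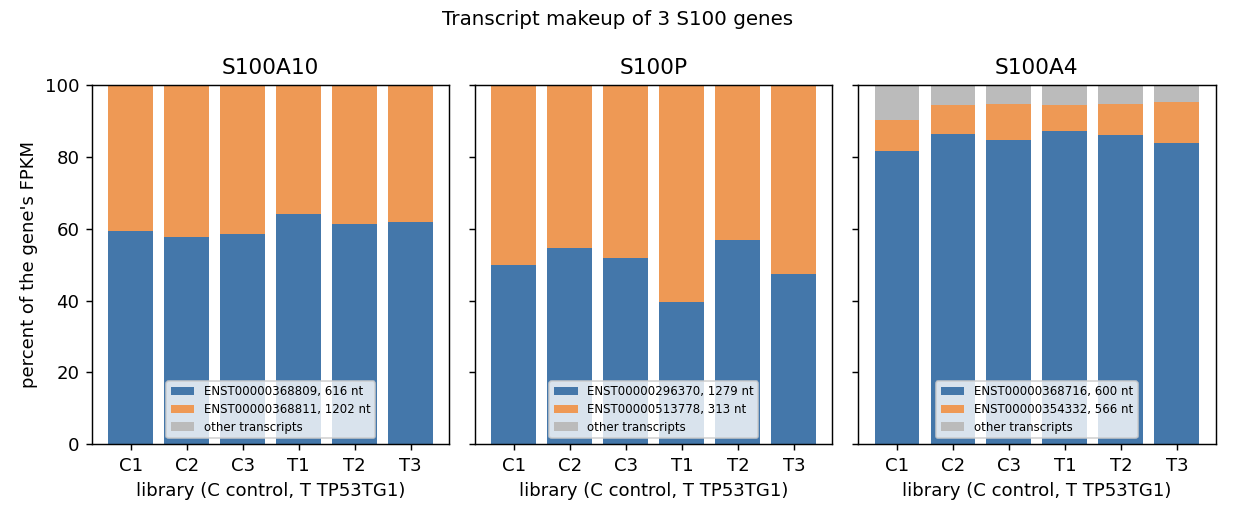
Percent of each gene's FPKM held by transcripts with a mean share of at least 5%, per library, for S100A10, S100P and S100A4. The shorter S100A10 transcript runs from 57.8% to 59.3% in the controls and from 61.4% to 64.2% with TP53TG1, and S100P is shared by a coding and a noncoding transcript.

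Markers of intestinal epithelium, a tissue where S100P is known from tumours, were examined beside it, and 0 passed at a limma adjusted p of 0.05. Of 9 such genes 5 were tested, and 4 of them, VIL1, KRT20, LGALS4 and CDH17, had an unadjusted p under 0.05 in the lower direction, where 1.91% of all tested genes did. The other tested marker, CDX2, averaged 8.69 ± 1.36 FPKM in the controls and 7.03 ± 2.72 FPKM with TP53TG1 (SD, n = 3 each), with a log2 fold change of -0.32, and 0.04 after scaling. KRT20, an intestinal keratin gene, averaged 146 ± 27.2 FPKM in the controls and 82.2 ± 30.3 FPKM with TP53TG1, and CDH17, the liver-intestine cadherin gene, 29.6 ± 3.56 and 14.6 ± 7.15 FPKM (SD, n = 3 each). CDH17 and VIL1 were lower without overlap between groups on either scale, KRT20 only on unscaled FPKM. Of all tested genes, 13.3% were lower without overlap on unscaled FPKM and 2.18% after scaling. LGALS4, a gut galectin gene, was at 135, 24.0 and 22.6 FPKM in controls 1, 2 and 3 against 27.1, 12.7 and 3.21 FPKM with TP53TG1, and was the 1 marker that passed with the replicate number as a block (limma adjusted p = 4.57e-06), where 1.49% of all genes passed, though not when scaling was added (0.601). The summed level of the 9 genes ran from 180 to 347 FPKM in the controls and from 92.1 to 157 FPKM with TP53TG1, with CDX1 listed at 0. Its part in the values of S100P was not tested.

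S100A8 (chromosome 1, 153390032 to 153391188, minus strand) and S100A9 (153357854 to 153361027, plus strand), the calprotectin genes, were listed at 0 in the 3 controls and the 3 TP53TG1 libraries. So were S100A12, their relative in neutrophils, and the epidermal genes S100A7 and S100A7A. An exact 0 in these files can be a failed estimate, and no counts were analysed, so no limit of detection is given. Among 10 markers of myeloid cells, 7 stayed under 1 FPKM in all 6 libraries, and TYROBP, MPO and FCGR3B were listed at 0. The other 3 were CD68, a lysosomal protein gene also expressed outside that lineage, at 32.4 to 65.2 FPKM, CD14, at 0.36 to 2.60 FPKM, and ITGAM, at 0.41 to 1.23 FPKM.

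S100A2 (chromosome 1, 153561108 to 153567890, minus strand), a nuclear member of squamous and basal epithelium, was at 3.68, 5.35 and 2.37 FPKM in controls 1, 2 and 3 against 7.24, 3.92 and 6.11 FPKM with TP53TG1. The groups overlapped through the libraries numbered 2. The log2 fold change of 0.51 (95% interval -0.37 to 1.39, limma adjusted p = 0.748) was the highest of the 7 tested members, 0.85 after scaling and 0.28 without control replicate 3. Its FPKM was spread over 5 transcripts, and the share of ENST00000368709 ran from 25.6 ± 22.5% in the controls to 34.0 ± 14.2% with TP53TG1 (SD, n = 3 each). Of 11 listed squamous keratinocyte markers, 10 of them matched, only KRT10 reached a mean of 1 FPKM.

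S100A16 and S100A14 are neighbours on chromosome 1 that are often found together in epithelia, and here only S100A16 reached 1 FPKM. S100A16 (153606886 to 153613145, minus strand) was at 63.3, 35.5 and 39.7 FPKM in controls 1, 2 and 3 against 38.5, 32.1 and 29.3 FPKM with TP53TG1. On unscaled FPKM it was lower with TP53TG1 within each replicate number, and TP53TG1 replicate 1 lay between the controls. After scaling, S100A16 was higher in TP53TG1 replicate 1 (62.6 FPKM) than in control replicate 1 (56.6 FPKM), and still lower for replicates 2 and 3. The share of all genes that were lower within each replicate number was not counted. The log2 fold change was -0.42 (95% interval -1.13 to 0.28, limma adjusted p = 0.748), -0.03 after scaling and -0.18 without control replicate 1. S100A14 (153614255 to 153616986, minus strand) was at 0.04, 0.19 and 0 FPKM in the controls and 0.06, 0.06 and 0 FPKM with TP53TG1.

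The chromosome 1 members sit in a window of 1649 kb, from S100A10 to S100A1, with 63 protein-coding genes. Of its 17 S100A genes, 8 reached a mean of 1 FPKM. Of the other 46, which include the genes of the epidermal cornified envelope, 1 did, SPRR2D at 1.33 FPKM. The window held 41 genes at 0 in all 6 libraries. S100A10 and S100A11 stand at one end. S100A6, S100A4, S100A3, S100A2, S100A16 and S100A13 stand at the other, and S100A9, S100A12, S100A8, S100A7A, S100A7L2 and S100A7, all listed at 0, lie between. The S100-fused genes of the same window, such as FLG and HRNR, stayed under 1 FPKM in all 6 libraries, 7 of 7.

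**Figure D4:**
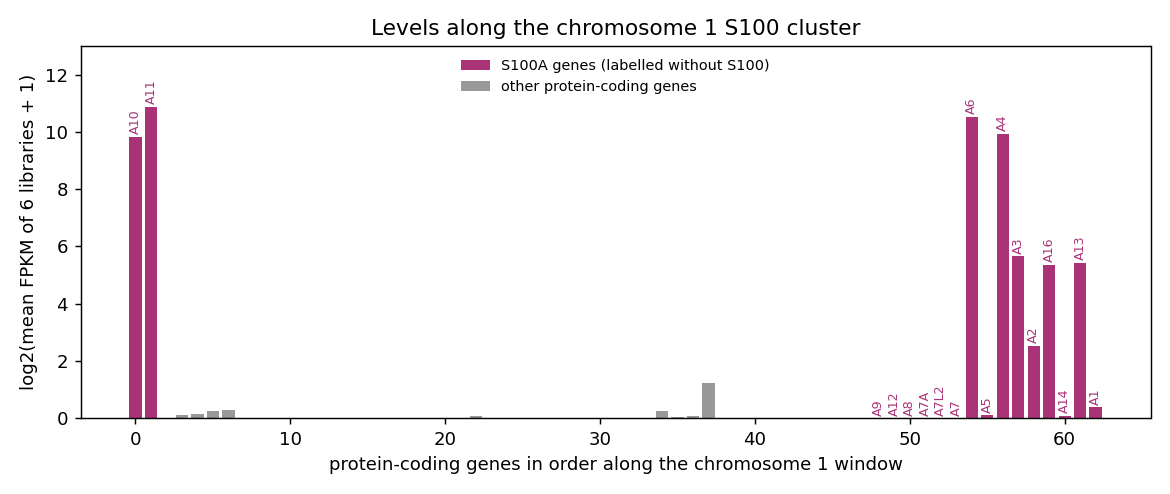
Mean level over the 6 libraries, as log2(mean FPKM + 1), of the 63 protein-coding genes from S100A10 to S100A1 in chromosomal order, S100A genes in purple and the others in grey. The 8 S100A genes above 1 FPKM are at both ends, with genes at or near 0 between them.

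The tested members other than S100A2 and S100A4 were highest in replicate 1 of each group, and short transcripts in general were relatively high there. S100P in control replicate 1 was 2.32 times the mean of controls 2 and 3, and the corresponding ratio for TP53TG1 replicate 1 was 2.54. For S100A11 these ratios were 1.70 and 1.43, for S100A6 1.64 and 1.18, and for S100A4 1.24 and 0.926. The median ratios of the 1884 tested genes with a mean transcript length under 1000 nt were 1.42 and 1.03. For the 3875 genes of 3000 nt and over they were 0.613 and 0.342. Weighted transcript lengths of the tested members were 594 to 1113 nt. The part of transcript length in the members' values was not tested.

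**Figure D5:**
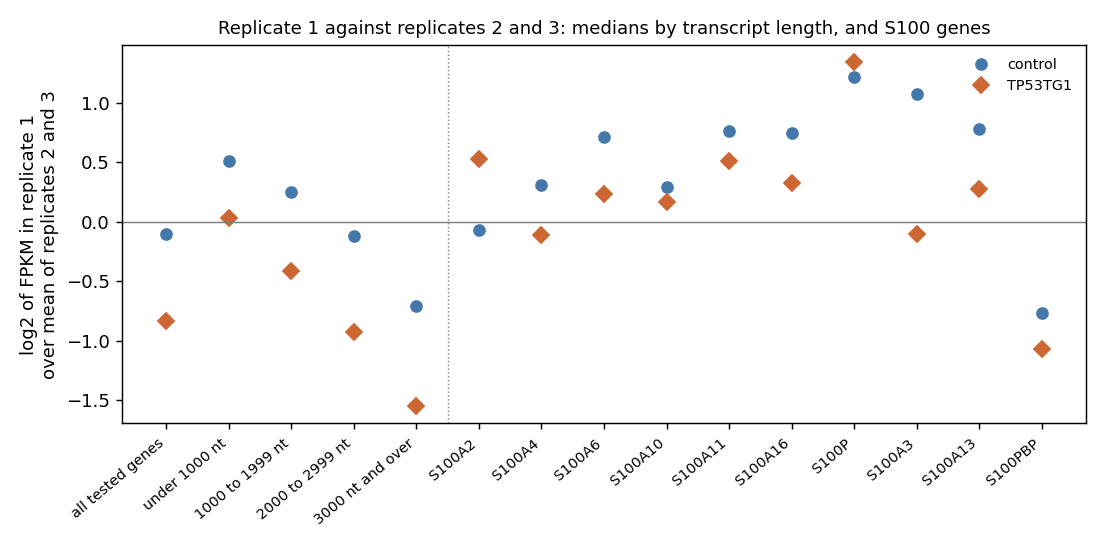
Log2 of the FPKM in replicate 1 over the mean of replicates 2 and 3, for controls (circles) and TP53TG1 libraries (diamonds). Medians by transcript length stand at the left, from 1.42 and 1.03 times under 1000 nt to 0.613 and 0.342 times at 3000 nt and over. S100 genes and S100PBP stand at the right, with S100P highest at 2.32 and 2.54 times.

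A further list held 3 tested genes, S100A3, S100A13 and S100PBP, which encodes a binding protein of S100P and is not an S100 gene. This list had 0 passing and a median 0.18 above that of all genes. Relative to all genes, the median ran from -0.14 without TP53TG1 replicate 1 to 0.46 without control replicate 1. The partners and receptors of S100 proteins gave no gene past the threshold either. In the list of annexins and membrane partners, 0 of 7 tested genes passed, 3 lay above the median of all genes, and the list median was -0.44. ANXA4, a calcium-dependent membrane binding protein gene, averaged 70.5 ± 16.3 FPKM in the controls and 41.5 ± 13.5 FPKM with TP53TG1 (SD, n = 3 each), with a log2 fold change of -0.78 and -0.39 after scaling (limma adjusted p = 0.748). Its groups did not overlap on unscaled FPKM, where 13.3% of all genes were lower without overlap, and overlapped after scaling. On unscaled FPKM, 4 of the 7 tested genes of this list were lower without overlap. ANXA7, another annexin gene, was so after scaling too, where 2.18% of all genes were. Its scaled level was 57.2 ± 2.55 FPKM in the controls and 50.2 ± 2.97 FPKM with TP53TG1 (SD, n = 3 each). Of the 15 cytoskeletal and cytosolic partners 0 passed, at a list median of -0.33. The ratio of S100P to its partner EZR was 8.73, 2.50 and 3.08 in the controls and 16.2, 2.03 and 1.33 with TP53TG1.

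Among receptors, 0 of 7 tested genes passed, with a list median of -0.14. BSG, basigin, a receptor of extracellular S100A9, was the most abundant at 732 ± 239 FPKM in the controls and 578 ± 119 FPKM with TP53TG1 (SD, n = 3 each). AGER, which encodes RAGE, was at 1.24 ± 0.270 and 1.31 ± 1.00 FPKM, and TLR4 at 3.12 ± 2.01 and 1.92 ± 1.39 FPKM (SD, n = 3 each). The receptor most often tied to S100P and calprotectin was thus near the limit of 1 FPKM used for testing.

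In the list of plasminogen activation, the process that the S100A10 and annexin A2 complex supports at the cell surface, 0 of 6 tested genes passed. All 6 lay above the median of all genes, at a list median of 0.02, or 0.37 above that of all genes. PLAUR, the urokinase receptor gene, averaged 23.1 ± 10.3 and 30.7 ± 7.37 FPKM, and PLAT, the tissue plasminogen activator gene, 12.3 ± 7.89 and 16.2 ± 6.45 FPKM in control and TP53TG1 libraries (SD, n = 3 each). The groups overlapped for both. Other EF-hand calcium sensors had 0 of 21 passing and a list median of -0.32, near that of all genes. CALM2, a calmodulin gene, averaged 479 ± 46.6 and 343 ± 50.2 FPKM (SD, n = 3 each) without overlap on unscaled FPKM, with a log2 fold change of -0.48, and -0.08 after scaling. Of all tested genes, 13.3% were lower without overlap on unscaled FPKM, and the groups of CALM2 overlapped after scaling. Markers of mesenchymal cells had 0 of 7 passing and a list median 0.81 above that of all genes, or -0.00 from it (-0.0042) at a mean of at least 5 FPKM and 0.31 above without TP53TG1 replicate 1. COL1A1, a fibrillar collagen gene, was at 2.79, 1.81 and 2.85 FPKM in controls 1, 2 and 3 against 10.9, 3.05 and 3.19 FPKM with TP53TG1, and SPARC, a matrix protein gene, at 4.35, 1.3 and 3.27 against 11.8, 3.27 and 3.43 FPKM. TP53TG1 replicate 1 was the highest library for both. FN1, the fibronectin gene, averaged 458 ± 153 and 333 ± 92.0 FPKM in control and TP53TG1 libraries (SD, n = 3 each).

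Pairing the libraries by replicate number called no S100 gene. With the number as a block the limma adjusted p of the 7 tested members ran from 0.381 for S100P to 0.964 for S100A4, where 1.49% of all tested genes passed. With scaling added it ran from 0.896 to 0.984, where 0.0467% passed. Under the other settings the count of members passing was also 0. The share of all genes passing was 0.0227% at a mean of at least 5 FPKM and 0.0156% with scaling alone. It was 0.00782% and 0.00783% without control replicate 2 or 3, and 0.00772%, 0.00781% and 0.00775% without TP53TG1 replicate 1, 2 or 3. In exact two-sided permutation tests on FPKM the lowest p of the 7 was 0.2, for S100A2 and S100A16, and 0.1 is the smallest possible.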

How the data were processed

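RNA sequencing of 3 control and 3 TP53TG1 libraries was used. The authors deposited 1 value per transcript and library, without a unit in the headers. The deposited values were taken as FPKM made by the authors, since they are not whole and library sums differ; per the submitters' processing notes the tools were HISAT2 and StringTie, with the build GRCh38.p10. No source used here gives their versions, the strand or the annotation release, and the depth in fragments is unknown.

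Blank symbols (0 to 88000 rows per library) were filled by transcript from the other tables, and the 199234 transcripts were summed to 58233 genes. GENCODE release 29 (GRCh38) gave positions and lengths for 99.8% of the transcripts. Promoter sequences came from RefSeq (GRCh38.p14), and all 10 members matched. Genes averaging 1 FPKM or more were fitted on log2(FPKM + 1) with limma 3.58.1 in R 4.3.3, with a mean-variance trend, TP53TG1 minus control, and Benjamini-Hochberg adjustment over all tested genes at 0.05. Low genes change by more than such a fold change says. Scaled values are FPKM divided by median-of-ratios factors over genes above 0 in every library. The fit was tested on simulated data. Python 3.11.15, pandas 2.3.3 and matplotlib 3.10.9 served for joins and figures.

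The members and lists were chosen with earlier results of these data known. Named besides the members were other S100 genes, and from each list up to 4 tested genes with the smallest p and 2 with the highest mean. SPRR2D, AGER, CDX2, ITGAM, ALB, EZR, S100A1, the pseudogenes, FLG, HRNR and genes listed at 0 were named after their values were seen.

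The labels number both groups 1 to 3 without saying what a number marks. Deviations from the group means correlated at 0.710, 0.562 and 0.289 between libraries numbered 1, 2 and 3, above the limit of 0.1 set for pairing. Control replicate 3 with TP53TG1 replicate 2 (0.400) and control replicate 2 with TP53TG1 replicate 3 (0.302) passed it too, so the pairing rests on the data and mainly on the libraries numbered 1.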

Additional observations from a re-analysis of the deposited data

How the results depend on the processing

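The number of S100 members past the threshold was 0 under every setting tried: a pseudocount of 0.1, no filter, a mean of at least 5 FPKM, 2 scalings, the replicate block with and without scaling, and leaving out each library or both numbered 1. S100A2 was not tested at a mean of at least 5 FPKM. The number of all genes passing was 1, and became 0 with no filter, 2 at a mean of at least 5 FPKM, 2 with median-of-ratios scaling, 192 with the replicate block and 6 with the replicate block and scaling, and ran from 0 to 1 when 1 library was left out. The block changed the call of no S100 gene. Signs turned with median-of-ratios scaling, with and without the replicate block, for S100A4 (0.39), S100A6 (0.16), S100A11 (0.27) and S100A13 (0.23), and with each library rescaled to the same total (0.25, 0.0258, 0.13 and 0.0919). S100A4 was 0.13 without both libraries numbered 1. When 1 library was left out, S100A4 ran from -0.17 to 0.0936, S100A11 from -0.31 to 0.12, S100A13 from -0.33 to 0.0871, and the median of the members relative to all genes from -0.19 to 0.47. The cause was not tested. Depth in fragments is unknown, so values near 0 have no interval.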

Other observations

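S100A1, which works in heart muscle and lies opposite S100A13 on the other strand, was below the level needed for testing. It was at 0.11, 0.19 and 0.26 FPKM in controls 1, 2 and 3 against 0.41, 0.52 and 0.32 FPKM with TP53TG1, without overlap (exact two-sided permutation p = 0.1, the smallest possible). Of all tested genes, 0.428% were higher without overlap on unscaled FPKM. For genes below the level needed for testing, as S100A1 was, that share was not counted. Fragments of S100A1 and S100A13 overlap and cannot be assigned without strand, and S100A13 was at 34.7 to 62.8 FPKM in the controls and 34.9 to 44.0 FPKM with TP53TG1. S100PBP, whose product binds S100P, averaged 6.99 ± 2.08 FPKM in the controls and 4.68 ± 2.19 FPKM with TP53TG1 (SD, n = 3 each) and did not pass (limma adjusted p = 0.748).

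After scaling, the levels of S100A6 and S100A11 across the 6 libraries correlated at 0.989, those of S100A16 and S100P at 0.988 and those of S100A4 and S100A10 at 0.950 (Pearson r on log2 values). The weakest pair was S100A4 with S100P, at 0.634. Among 6479 genes averaging 10 FPKM or more, the one most like S100A6 was PSMB6 (0.9998), for S100A11 UBL5 (0.9990), for S100A16 CCDC130 (0.9985), for S100P NPDC1 (0.9973), for S100A10 SRP68 (0.9968) and for S100A4 C17orf62 (0.9951). These points share the libraries and their scale, and with 6 points and so many genes such values are a description only.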
